A study of Mus musculus with 10 samples.

Results

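Occupancy of untagged TET2 was compared with occupancy of FLAG-tagged TET2 in mouse embryonic stem (ES) cells by ChIP-seq, through the peak lists of 4 libraries. Wild-type libraries 1 and 2 came from ES cells of genotype Tet2fl/fl (floxed, intact alleles without a tag), precipitated with 1 µg of a rabbit polyclonal antibody raised to TET2's N-terminal portion. FLAG-TET2 libraries 1 and 2 came from Tet2fl/fl ES cells in which the endogenous Tet2 locus encodes TET2 with a 2x-Flag tag, precipitated with 20 µl of FLAG M2 affinity gel. Genotype and reagent therefore changed together between the groups, and a difference between them cannot be told apart as one of tag, cell line or reagent. Each reagent had its own control lists from cells without its epitope: knockout 1 and 2 (Tet2-/-, TET2 antibody) and parental 1 and 2 (Tet2fl/fl without a tag, FLAG M2 gel). All cells were grown in serum with LIF, 3 µM CHIR99021 (a GSK-3 inhibitor) and 1 µM PD0325901 (a MEK inhibitor), and crosslinked with disuccinimidyl glutarate and formaldehyde. The labels do not say whether replicates were separate cultures, how many clones the tagged line represents, or what the read depth was, so the p-values measure only a spread between lists that may be technical. The members were the regions formed by merging peaks of the 4 target lists that shared at least 1 bp on the 21 assembled chromosomes (mm10). Of 70738 merged regions, 11957 (16.9%) had a peak in all 4 lists and are called shared. Another 1496 regions are called wild-type only, with peaks from wild type 1 and 2 alone, and 7049 are FLAG-TET2 only, with peaks from FLAG-TET2 1 and 2 alone.

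TET2 is a dioxygenase that oxidises 5-methylcytosine to 5-hydroxymethylcytosine, the first step of active DNA demethylation. It has no CXXC DNA-binding domain of its own and is brought to chromatin by partner proteins. In ES cells it is best known for oxidising methylcytosine at enhancers and in gene bodies, whereas TET1 is the member known for CpG-rich promoters.

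Promoters of 6 genes, picked for a motif they hold and not for the size of their difference, show the sequence context of some regions that differed between the groups. The 3 germline genes Sycp1 and Sycp3, which build the synaptonemal complex of meiosis, and Mov10l1, a helicase of the piRNA pathway, had a wild-type only region. Their promoters hold CACGTG, a palindromic E-box, in capitals below. Ogdhl, an oxoglutarate dehydrogenase-like enzyme, Hrh3, the histamine H3 receptor, and Ttc9b had shared regions that ranked higher in FLAG-TET2. Their promoters hold CAGCACC and GGACAG with 2 letters between them, in capitals, on either strand. These letters form the core of the RE1 element, the known recognition sequence of the neuronal gene repressor REST. The Ogdhl, Hrh3 and Ttc9b promoters each overlapped a shared region that also had a parental peak. The sequences are RefSeq promoters of GRCm38.p6, from 250 bases before the start to 50 bases after it, printed 5′ to 3′ on the gene's strand. They lie at chr3:102936051-102936350 (minus strand), chr10:88459337-88459636 (plus), chr15:88982744-88983043 (plus), chr14:32321769-32322068 (plus), chr2:180104358-180104657 (minus) and chr7:27653674-27653973 (plus). The genes were picked with their values known. The Ogdhl promoter also holds CACGTG, left in lower case.
Sycp1: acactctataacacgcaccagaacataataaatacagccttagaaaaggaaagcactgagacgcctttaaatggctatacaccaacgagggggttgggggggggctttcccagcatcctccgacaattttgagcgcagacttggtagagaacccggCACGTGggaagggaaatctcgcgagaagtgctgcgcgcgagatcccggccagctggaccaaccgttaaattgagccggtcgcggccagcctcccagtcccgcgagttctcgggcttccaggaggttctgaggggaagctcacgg
Sycp3: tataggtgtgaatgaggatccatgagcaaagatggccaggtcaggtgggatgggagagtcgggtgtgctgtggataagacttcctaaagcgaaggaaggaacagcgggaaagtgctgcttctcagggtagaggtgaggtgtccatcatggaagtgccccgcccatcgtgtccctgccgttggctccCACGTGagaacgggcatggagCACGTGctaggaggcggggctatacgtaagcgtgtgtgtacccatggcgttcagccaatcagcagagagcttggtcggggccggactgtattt
Mov10l1: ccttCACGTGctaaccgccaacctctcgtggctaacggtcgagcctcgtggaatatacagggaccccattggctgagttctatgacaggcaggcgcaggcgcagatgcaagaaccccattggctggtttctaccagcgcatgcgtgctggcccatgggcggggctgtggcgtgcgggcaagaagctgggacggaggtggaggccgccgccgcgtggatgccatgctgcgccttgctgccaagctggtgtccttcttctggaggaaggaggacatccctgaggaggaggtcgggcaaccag
Ogdhl: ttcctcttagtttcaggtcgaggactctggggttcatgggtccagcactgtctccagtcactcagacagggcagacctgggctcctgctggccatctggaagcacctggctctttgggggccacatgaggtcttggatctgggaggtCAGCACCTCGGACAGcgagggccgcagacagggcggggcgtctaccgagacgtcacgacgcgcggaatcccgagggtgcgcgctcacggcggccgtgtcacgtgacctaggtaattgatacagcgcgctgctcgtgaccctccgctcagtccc
Hrh3: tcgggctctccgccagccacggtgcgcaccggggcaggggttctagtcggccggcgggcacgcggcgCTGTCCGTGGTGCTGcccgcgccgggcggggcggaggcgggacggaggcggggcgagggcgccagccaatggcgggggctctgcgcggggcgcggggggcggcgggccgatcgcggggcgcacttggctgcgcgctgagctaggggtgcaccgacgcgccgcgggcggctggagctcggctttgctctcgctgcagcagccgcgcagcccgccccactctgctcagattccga
Ttc9b: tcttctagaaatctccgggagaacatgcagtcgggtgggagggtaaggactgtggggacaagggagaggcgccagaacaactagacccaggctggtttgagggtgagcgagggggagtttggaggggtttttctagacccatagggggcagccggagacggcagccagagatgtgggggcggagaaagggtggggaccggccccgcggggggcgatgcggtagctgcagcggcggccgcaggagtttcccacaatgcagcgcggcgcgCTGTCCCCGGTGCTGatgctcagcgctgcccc
The distance from summit to motif varied. At Sycp3 the wild-type summits lay 79 and 41 bases before the start, and the first of its 2 E-boxes begins 64 bases before it. At Mov10l1 the summits lay 7 and 19 bases before the start, far from the E-box that begins 246 bases before it. At Sycp1 they lay 141 and 197 bases after the start, beyond the printed window, and the E-box begins 94 bases before it. At Hrh3 all 4 target summits lay 164 to 195 bases before the start, and the capitals begin 183 bases before it. At Ogdhl the FLAG-TET2 summits lay 88 and 85 bases before the start, the wild-type summits 84 and 8 bases after it, and the capitals begin 103 bases before it. At Ttc9b the capitals begin 18 bases past the start, the FLAG-TET2 summits lay 29 and 7 bases after it and the wild-type summits 54 and 14 bases before it.

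The lists differed in length more within a group than the groups differed from each other. Wild type 1 and 2 held 38536 and 18820 peaks on the assembled chromosomes, and FLAG-TET2 1 and 2 held 63578 and 28245. Knockout 1 and 2 held 2259 and 11696 peaks, and parental 1 and 2 held 36518 and 10122. A region without a control peak is thus one that did not pass the authors' threshold in any of 4 lists of unequal length. Between 2 and 34 peaks of a list lay on other sequences and were left out.

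Most regions found in both wild-type lists were found again with the tag. The shared regions made up 70.0% of the 17077 found with wild type 1 and 2 and 48.7% of the 24564 found with FLAG-TET2 1 and 2. A further 3624 regions were in both wild-type lists and a single FLAG-TET2 list, which was FLAG-TET2 1 for 3561 of them. Likewise 5558 regions were in both FLAG-TET2 lists and a single wild-type list, which was wild type 1 for 5458. The largest block of all was of 26329 regions found in FLAG-TET2 1 alone. The single list was thus mostly the longer one of its group.

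Each reagent's own control had peaks in most of the regions found with that reagent only. Of the 1496 wild-type only regions, 64.7% overlapped a knockout peak and 6.15% a parental peak. Of the 7049 FLAG-TET2 only regions, 81.1% overlapped a parental peak and 0.794% a knockout peak. Of the shared regions, 29.8% overlapped a knockout peak and 54.8% a parental peak. No control peak was found in 503 (33.6%) of the wild-type only, 1321 (18.7%) of the FLAG-TET2 only and 4521 (37.8%) of the shared regions. With every target list shortened to 18820 peaks the one-group counts were 4194 for wild type only and 5041 for FLAG-TET2 only, beside 7052 shared. Leaving out a list also asks for 1 list in place of 2 in its group. Without FLAG-TET2 1 the wild-type only count was 5262, without wild type 2 it was 7808, and without FLAG-TET2 2 or wild type 1 the FLAG-TET2 only count was 33533 or 12681.

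**Figure D1:**
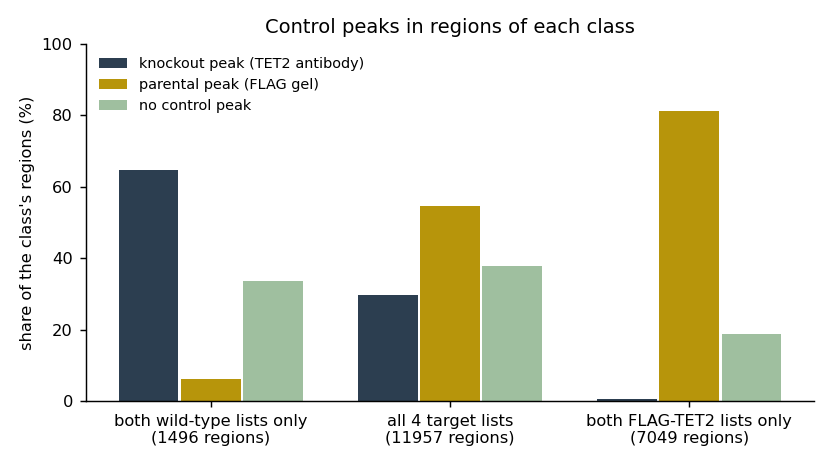
Share of regions (%) that overlap a knockout peak, a parental peak or no control peak, in regions of both wild-type lists only, of all 4 target lists and of both FLAG-TET2 lists only. The knockout share is highest in the wild-type only class (64.7%) and the parental share in the FLAG-TET2 only class (81.1%).

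Shared regions lay at gene starts more often than either one-group class. Within 1 kb of an annotated protein-coding start lay 4389 of 11600 shared regions (37.8%, 95% Wilson interval 37.0 to 38.7), 370 of 1464 wild-type only regions (25.3%, 23.1 to 27.6) and 815 of 6806 FLAG-TET2 only regions (11.97%, 11.2 to 12.8). Chromosome 18, for which the start table used here has no entry, is left out of these shares, and the intervals cover counting error only. Among regions without a control peak the order was different: 7.11% of 4361 shared, 17.8% of 494 wild-type only and 8.10% of 1272 FLAG-TET2 only regions lay at a start. Among shared regions with a control peak the share was 56.4%. Over whole lists, 30.7% and 36.6% of wild-type peaks and 21.1% and 31.9% of FLAG-TET2 peaks lay at starts, which a two-sided exact permutation test did not separate (p = 0.667, n = 2 and 2 lists, smallest possible p 0.333). The difference between the one-group classes, 13.3 percentage points, was 6.29 without wild type 1, 7.93 without wild type 2 and 24.2 with lists of equal length.

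Germline genes stood among the wild-type only regions. Of 18 germline genes listed, 6 were nearest to a wild-type only region: Sycp1, Sycp2 and Sycp3 of the synaptonemal complex, Mov10l1 and Tdrd1 of the piRNA pathway, and Taf7l, a testis paralogue of a TFIID subunit. Over all protein-coding genes this held for 1239 of 21887. Of these 6 regions, 6 overlapped a peak in both knockout lists. At Tdrd1 (chromosome 19, 56826051 to 56826397) the authors' folds were 11.9 and 14.2 in wild type 1 and 2 and 19.6 and 25.1 in knockout 1 and 2. At Taf7l (chromosome X, 134474994 to 134475291) the folds were 15.1 and 10.3 in wild type and 18.5 and 27.5 in the knockout. The germline regions thus had peaks in lists from Tet2-/- cells. The same was seen at the leading wild-type only regions over all genes. These lay by Rfxank, a subunit of the RFX complex of MHC class II promoters, Pgpep1, Bhmg1, which encodes the meiotic initiator MEIOSIN, and Dtx1, a Deltex ubiquitin ligase of the Notch pathway. At Rfxank (chromosome 8, 70135801 to 70136120, gene body) the folds were 44.2 and 33.1 in wild type and 40.3 and 52.6 in the knockout. At the start of Bhmg1 (chromosome 7, 19118001 to 19118785) they were 26.7 and 16.3 in wild type and 21.9 and 23.4 in the knockout. Dtx1 and Pgpep1 also had peaks in both knockout lists.

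Some wild-type only regions had no control peak. The start of Cbx8, a chromobox subunit of Polycomb repressive complex 1 (chromosome 11, 119040562 to 119041346), was a peak of 13.9-fold and 9.88-fold in the wild-type lists and of no other list. Further such regions lay in the body of Dnmt3a, the de novo DNA methyltransferase (folds 5.76 and 6.56), in the body of Pax6, a neural transcription factor (6.14 and 6.46), and near Tcf7l1, a repressor of WNT targets (5.82 and 7.68).

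The leading FLAG-TET2 only regions were as strong in the parental lists. They were nearest to Celf4, an RNA-binding protein of neurons, Trappc9, a vesicle-tethering subunit, Immp2l, a mitochondrial peptidase, and the predicted gene Gm51483. The Immp2l and Gm51483 regions lay 1017 and 138.3 kb from these genes. In the body of Trappc9 (chromosome 15, 72689528 to 72690345) FLAG-TET2 1 and 2 had folds of 101 and 73.6, and parental 1 and 2 of 97.5 and 78.3. At Celf4 they were 102 and 74.7 in FLAG-TET2 and 97.5 and 79.2 in the parental lists. Neither knockout list had a peak at any of the 4 regions.

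**Figure D2:**
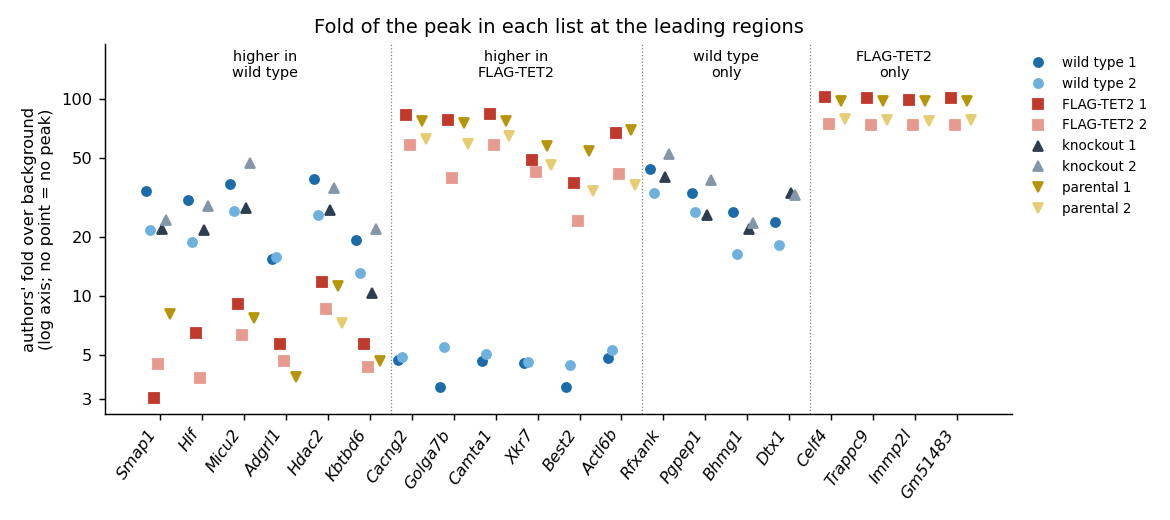
Authors' fold over background (log axis) of the peak in each of the 8 lists at the leading regions of 4 kinds: shared and ranked higher in wild type, shared and ranked higher in FLAG-TET2, wild type only and FLAG-TET2 only. Knockout points sit near the wild-type points at regions higher in or only in wild type, except at Adgrl1 where there are none, and parental points sit near the FLAG-TET2 points at the others.

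For the shared regions, strength was compared as the rank of a region's −log10 q within its own list, among the 11957 shared regions, so that all 4 lists had equal length. Ranks were turned into normal scores, on which a difference of 1 is 1 SD of a list, and tested with limma. At a Benjamini-Hochberg adjusted p under 0.05, 655 regions (5.48%) ranked higher in wild type and 516 (4.32%) higher in FLAG-TET2. In each called region both lists of one group ranked above both lists of the other. The calls were made on these same ranks, so this is not separate evidence. The remaining 10786 regions passed in neither direction. In 2664 of these 10786 both wild-type lists ranked above both FLAG-TET2 lists, and in 2658 the reverse held. With 2 lists against 2, such a separation alone has a two-sided exact permutation p of 0.333, so these counts name no differences. The count higher in wild type was 123 when percentiles replaced normal scores and 253 without the variance trend, and the counts higher in FLAG-TET2 were then 200 and 297. Leaving out wild type 1 or 2 gave 864 or 785 regions higher in FLAG-TET2, and leaving out FLAG-TET2 1 or 2 gave 335 or 336.

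Called regions of both directions had a parental peak more often than uncalled ones, and knockout peaks were more frequent in those higher in wild type. Of the 516 regions higher in FLAG-TET2, 80.4% had a parental peak and 28.7% a knockout peak. Of the 655 higher in wild type, 60.0% had a parental peak and 57.0% a knockout peak. Of the uncalled regions, 53.3% and 28.2% did. Where a peak was present, its median percentile in the parental 1 list was 94.2 for regions higher in FLAG-TET2 and 42.0 for regions higher in wild type. In the knockout 2 list it was 40.9 and 89.7 in the same order. Among 3877 regions with a parental peak only, 115 ranked higher in wild type and 273 in FLAG-TET2. Among 882 regions with a knockout peak only, the counts were 95 and 6. At the 145 of these at gene starts they were 31 and 0, and the median difference was 0.96 in favour of wild type. Among the 4521 regions without a control peak, 167 (3.69%) and 95 (2.10%) were called, and 108 and 71 when these regions were ranked among themselves.

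**Figure D3:**
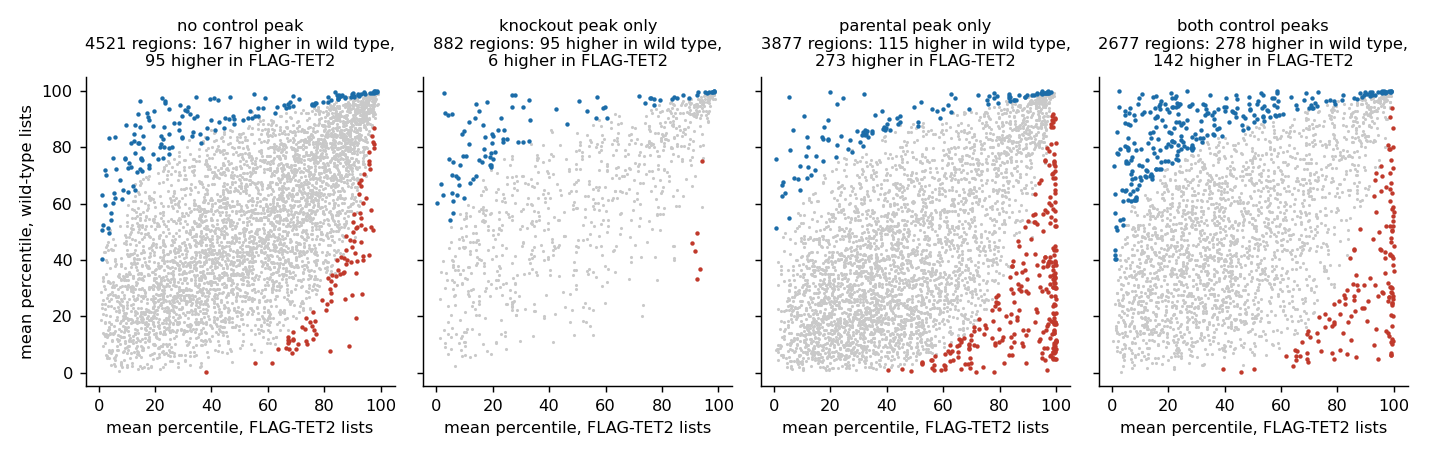
Mean within-list percentile of each shared region in the wild-type lists (vertical) and the FLAG-TET2 lists (horizontal), split by control peaks. Blue points ranked higher in wild type and red points in FLAG-TET2 in the limma test, and the titles give the counts, such as 95 and 6 with a knockout peak only and 115 and 273 with a parental peak only.

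The 6 largest differences in favour of wild type were in regions nearest to Smap1, a GTPase-activating protein for ARF6, Hlf, a PAR bZIP transcription factor, Micu2, a regulator of mitochondrial calcium uptake, Adgrl1, the adhesion receptor latrophilin, Hdac2, a class I histone deacetylase, and Kbtbd6, a substrate adaptor of a cullin ligase. The Hlf and Adgrl1 regions lay 27.0 and 23.6 kb from these genes. At the Smap1 start (chromosome 1, 23921827 to 23922693) the region had percentiles of 99.9 and 99.95 in wild type 1 and 2 against 0.0167 and 5.14 in FLAG-TET2 1 and 2. The difference in normal score was 5.81 (SE 0.530, limma adjusted p = 1.6e-06). Its folds were 21.8 and 24.3 in the knockout lists. At the Hdac2 start (chromosome 10, 36973875 to 36975562) the percentiles were 99.99 and 100.0 in wild type against 48.7 and 68.4 in FLAG-TET2 (difference 3.58, SE 0.210, limma adjusted p = 1.5e-08). Its folds were 27.4 and 35.2 in the knockout lists. Hlf, Micu2 and Kbtbd6 also had peaks in both knockout lists. At Adgrl1 (chromosome 8, 83874769 to 83876510) neither knockout list had a peak and the parental 1 fold was 3.89, with percentiles of 95.9 and 99.7 in wild type against 6.26 and 4.08 in FLAG-TET2 (difference 3.86, SE 0.428, limma adjusted p = 9.2e-06).

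The 6 largest differences in favour of FLAG-TET2 each had a peak in both parental lists and in neither knockout list. They lay at Cacng2, the AMPA receptor subunit stargazin, Golga7b, Camta1, a calmodulin-binding transcription activator, Xkr7, Best2, a bestrophin chloride channel, and Actl6b, the neuron-specific actin-like subunit of the BAF complex. By the Cacng2 start (chromosome 15, 78119356 to 78120238) percentiles were 2.16 and 7.87 in wild type against 99.94 and 99.95 in FLAG-TET2. The difference was -4.96 (SE 0.345, limma adjusted p = 9.4e-08). There the wild-type folds were 4.70 and 4.90, beside 82.9 and 58.6 in FLAG-TET2 and 77.2 and 62.6 in the parental lists. At the Actl6b start (chromosome 5, 137553354 to 137553970) percentiles were 1.04 and 14.1 in wild type against 99.8 and 99.7 in FLAG-TET2 (difference -4.48, SE 0.416, limma adjusted p = 2e-06), with parental folds of 69.3 and 36.3. The groups' summits lay 13 to 71 bp apart at 5 of the 6 regions and 282 bp apart at Xkr7, where the wild-type summits lay 462 bp from each other. At the 6 regions higher in wild type above, they lay 112 to 428.5 bp apart. The FLAG-TET2 summits lay 552 bp from each other at Smap1 and 380 bp at Adgrl1, farther than the groups' 323 and 154.5 bp. At Hlf, Micu2, Hdac2 and Kbtbd6 each replicate pair lay closer together than the groups did.

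Without any control peak, the called differences were smaller, the largest being 2.97 in favour of wild type and -2.67 in favour of FLAG-TET2. The 12 regions named here were picked with their values known. In the body of Agap1, an ARF GTPase-activating protein (chromosome 1, 89870606 to 89871043), percentiles were 94.3 and 98.8 in wild type against 12.4 and 17.1 in FLAG-TET2 (difference 2.97, SE 0.393, limma adjusted p = 6.2e-05). In the body of Pdpn, the membrane glycoprotein podoplanin (chromosome 4, 143287094 to 143287645), they were 97.5 and 97.3 in wild type against 39.5 and 5.14 in FLAG-TET2 (difference 2.89, SE 0.434, limma adjusted p = 0.00024). Rab6b, Unc5b, Akr1d1 and Ski followed. Near the start of Asns, asparagine synthetase (chromosome 6, 7694160 to 7694934), percentiles were 2.86 and 16.0 in wild type against 89.4 and 88.3 in FLAG-TET2 (difference -2.67, SE 0.476, limma adjusted p = 0.0012). In the body of Fndc3b (chromosome 3, 27532028 to 27532390) they were 12.1 and 27.1 in wild type against 92.0 and 90.4 in FLAG-TET2 (difference -2.25, SE 0.413, limma adjusted p = 0.0016). Cul1, a cullin scaffold, Dpy30, a subunit of H3K4 methyltransferases, Fhit and Ctnna1 made up the rest. The Fhit region lay 230.7 kb from the gene and the Cul1 region 26.8 kb.

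The 6 shared regions of highest mean percentile over the 4 lists, a choice that makes each list's rank high, were nearest to Ccna1, the germline cyclin A1, Tmprss11a, Cacng7, Brd1, a bromodomain protein of histone acetyltransferase complexes, Eps15l1 and Gabbr2, a GABA-B receptor subunit. The lowest percentile of any of these regions in any list was 98.6, at Eps15l1. The region in Gabbr2 had no control peak, and Eps15l1 had a knockout 2 peak only. The Ccna1 region lay 54.9 kb from the gene. At Tmprss11a, Cacng7, Brd1 and Gabbr2 wild type ranked higher by 0.97, 0.77, 0.51 and 0.79 in normal score (limma adjusted p = 0.00043, 0.0016, 0.042 and 0.0015), although the FLAG-TET2 percentiles there ran from 98.6 to 99.2. Normal scores are steep at this end of a list, where a small step in percentile is a large step in score.

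Genes of the pluripotent state often had shared regions, and their share of called regions was near that of all regions. Of 22 naive pluripotency genes and targets of LIF and the inhibitors, 20 were nearest to at least 1 shared region, as were 19 of 22 core pluripotency genes and 15 of 18 formative and primed genes, beside 7447 of 21887 genes in all (34.0%). Other lists stood above 34.0% too: DNA methylation (72.7%), Polycomb (66.7%), housekeeping (60.0%) and trophoblast and primitive endoderm genes (50.0%). Imprinted (31.2%), hematopoietic (29.4%), fibroblast (28.6%), germ layer (26.1%) and germline genes (16.7%) stood below it. Of the 66 shared regions of the naive genes 3 ranked higher in wild type and 3 in FLAG-TET2 (median difference 0.15), and of the 69 of the core genes 4 and 5 did (median -0.13). The share called was 9.09% for naive, 13.04% for core and 14.7% for formative and primed genes. Over the 10970 shared regions with a nearest gene, 615 and 491 were called (10.1%), with a median of 0.01. FLAG-TET2 only regions were nearest to 10 of the 22 naive and 14 of the 22 core genes, beside 19.4% of all genes, and wild-type only regions to 1 and 2 of them, beside 5.66% of all. Across the other lists the FLAG-TET2 only share ran from 5.56% (germline) to 50.0% (formative and primed), with 42.9% of fibroblast genes. Most FLAG-TET2 only regions of the naive and core genes overlapped a parental peak. Among the naive ones, only those by Klf5, Fbxo15 and Nr0b1 had no control peak. By Dppa3 the FLAG-TET2 folds were 66.7 and 46.4 and the parental folds 70.8 and 46.6. The region by the start of Pou5f1, which encodes OCT4 (chromosome 17, 35503792 to 35505481), ranked higher in wild type, at percentiles of 99.9 and 99.9 against 97.98 and 93.6 (difference 1.40, SE 0.171, limma adjusted p = 2.5e-05). The knockout 2 fold there was 6.27, the parental 1 fold 5.84 and the wild-type folds 28.9 and 18.1. The region at the start of Nanog (chromosome 6, 122706840 to 122708546) ranked higher in FLAG-TET2, at 82.2 and 36.7 in wild type against 98.04 and 98.6 (difference -1.84, SE 0.348, limma adjusted p = 0.0021). Its parental folds were 32.5 and 19.6, level with the FLAG-TET2 folds of 31.6 and 21.5.

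Single genes held called regions of opposite direction. Jarid2, a cofactor of Polycomb repressive complex 2, had a region at its start that ranked higher in wild type (difference 2.02, limma adjusted p = 0.015, parental 1 peak) and 1 in its body that ranked higher in FLAG-TET2 (difference -1.85, limma adjusted p = 0.034, no control peak). Rybp, a subunit of variant PRC1, had a region higher in wild type with peaks in both control groups (difference 1.19) and 1 higher in FLAG-TET2 without control peaks (difference -1.50). Both Socs3 regions called, Socs3 being the feedback inhibitor of LIF signalling, ranked higher in wild type (differences 1.51 and 2.37, limma adjusted p = 0.038 and 0.032), and the latter had no control peak. Klf4, a naive transcription factor, ranked higher in wild type at its start (difference 1.61, limma adjusted p = 0.0066). The Klf4 folds were 18.3 and 15.0 in wild type, 9.75 and 7.75 in FLAG-TET2, 5.20 in knockout 2 and 10.4 in parental 1. A region in Tfcp2l1, another naive factor, and a region in the LIF receptor gene Lifr ranked higher in FLAG-TET2 without control peaks (differences -1.99 and -0.99). Zfp42, the naive marker REX1, also ranked higher in FLAG-TET2 (difference -1.79), with parental folds of 7.95 and 5.495. Foxd3, Nodal, Etv5, Zfp281 and Smarcad1 had a called region higher in FLAG-TET2, and Etv4, Spry2, Lef1, Sall1 and Myc 1 higher in wild type. Of these regions, those of Foxd3, Etv4 and Lef1 had no control peak. Those of Nodal, Zfp281, Spry2 and Sall1 had a parental peak, that of Myc a knockout 2 peak, and those of Etv5 and Smarcad1 both kinds. Many of these calls depend on the scale: of 1171 calls in all, 323 remained with percentiles and 538 without the variance trend.

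In the other lists the share called ran both below and above the 10.1% of all shared regions with a nearest gene, over small numbers of regions. Of 29 shared regions of the DNA methylation machinery 2 (6.90%) were called, both higher in wild type: the start of Mbd3, a NuRD subunit (difference 1.17, limma adjusted p = 0.0004, peaks in all 4 control lists), and a region near Smug1, a uracil glycosylase (difference 1.90, limma adjusted p = 0.032, no control peak). Of 40 regions of Polycomb genes 4 ranked higher in wild type and 2 in FLAG-TET2 (15.0% together). Of 4 shared regions of germline genes 2 were called, both higher in wild type: the starts of Tex19.1 (difference 2.58, limma adjusted p = 3.6e-05), a germline factor, and Stk31 (difference 2.37, limma adjusted p = 0.00053), a kinase of germ cells. The knockout folds were 18.1 and 30.6 at Tex19.1 and 19.5 and 27.1 at Stk31. Of 9 regions of imprinted genes 3 were called. Igf2r, the receptor that clears IGF2, ranked higher in wild type at its start (difference 2.94, limma adjusted p = 7.8e-05), with knockout folds of 18.5 and 31.6. Grb10, a growth-restraining adaptor, ranked higher in FLAG-TET2 in its body (difference -3.60, limma adjusted p = 3e-07), with parental folds of 79.1 and 48.0. Kcnq1 ranked higher in wild type without a control peak (difference 1.17, limma adjusted p = 0.028). Germ layer transcription factors had shared regions at 6 of 23 genes and hematopoietic regulators at 5 of 17, with 1 call each, at Sox1 and Hhex, both higher in FLAG-TET2. Among housekeeping genes, with 18 shared regions, Ywhaz ranked higher in wild type and Eef1a1 and Rplp0 ranked higher in FLAG-TET2, and the regions of these genes overlapped a parental peak. Fibroblast genes of feeder cells had 8 shared regions, and trophoblast and primitive endoderm genes 15, none of them called. Peaks do not measure expression, so these lists name no cell type.

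Summits of the groups lay nearly as close as those of replicates. The median distance was 31 bp between wild type 1 and 2 and 37 bp between FLAG-TET2 1 and 2. Across the groups it was 41, 45, 43 and 47 bp for the 4 pairs of lists, a mean of 44.0 ± 2.58 bp (SD over pairs that share lists). In regions without a control peak the within-group medians were 23 and 25 bp and the 4 between-group medians 25 to 27 bp. In regions with a control peak they were 37 and 53 bp within and 66 to 79 bp between groups. Gene starts with a control peak were widest apart, with within-group medians of 45 and 78 bp and between-group medians of 110 to 120 bp over 4079 regions. At the 310 gene starts without one, the between-group medians of 33 to 39.5 bp lay within the range of the replicate pairs, 30 and 40.5 bp.

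**Figure D4:**
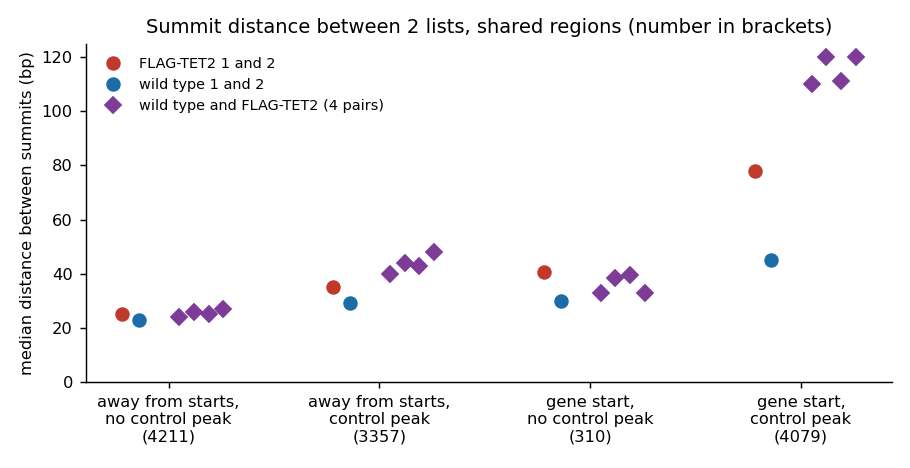
Median distance (bp) between the summits of 2 lists in shared regions, split by gene start and control peak. Circles are the replicate pairs of each group and diamonds the 4 pairs across groups, which stand above the circles at gene starts with a control peak (110 to 120 bp) and overlap their range at starts without one.

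Ranks were likewise closer within than between groups. Across the 11957 shared regions Spearman's rho of −log10 q was 0.72 within wild type and 0.76 within FLAG-TET2, and 0.40 to 0.51 for the 4 pairs between groups. It was 0.48 to 0.63 between groups in regions without a control peak and 0.20 to 0.25 at gene starts. These are descriptions over regions that share the same 4 libraries.

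At gene starts the summits of the groups differed in direction as well. For the 3355 shared regions with exactly 1 annotated start within 1 kb, the median summit lay 22 and 23 bp upstream of the start in wild type 1 and 2, and 95 and 94 bp downstream in FLAG-TET2 1 and 2. The replicate medians differed by 1 bp, and the mean medians of the groups by 117 bp. Paired within the same regions, the median difference was smaller, at 52 bp, and it was 1 bp in regions without a control peak. The exact permutation test gave p = 0.333 (n = 2 and 2 lists), the smallest it can give. Both wild-type summits lay upstream of both FLAG-TET2 summits in 1301 regions (38.8%) and downstream of both in 467 (13.9%). Control summits in the same regions lay on the same side of the start as those of their reagent, the parental ones farther from it than the FLAG-TET2 ones. The medians were 39 and 21.5 bp upstream in knockout 1 and 2 (349 and 1436 regions) and 178 and 188.5 bp downstream in parental 1 and 2 (2960 and 1522 regions). In the 259 such regions without a control peak the medians were 82, 76, 56 and 69 bp upstream in wild type 1 and 2 and FLAG-TET2 1 and 2. There the wild-type summits lay upstream of both FLAG-TET2 summits in 51 regions and downstream in 50. In the 126 with a knockout peak only the medians were 63.5 and 75.5 bp upstream in wild type and 52 and 36 bp upstream in FLAG-TET2. The 1654 regions at plus-strand starts and the 1701 at minus-strand starts gave differences of 116.5 and 116 bp.

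**Figure D5:**
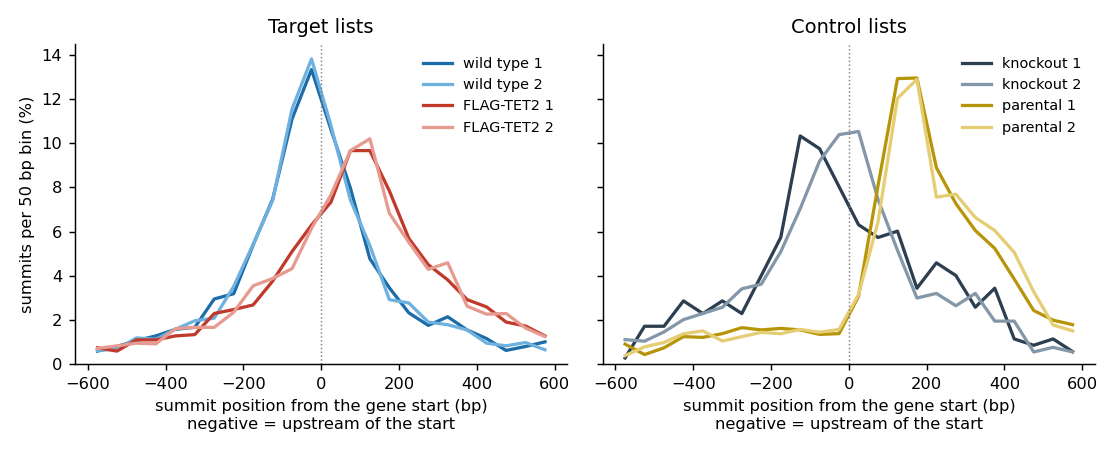
Share of summits (%) in 50 bp bins around the gene start in shared regions with exactly 1 start, for the 4 target lists (left) and the 4 control lists (right). The wild-type and knockout lines peak near or before the start and the FLAG-TET2 and parental lines after it.

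Where both groups placed their summits reproducibly, they mostly placed them together. In 5315 shared regions (44.5%) the summits of both replicate pairs lay within 50 bp, and in 4373 of these (82.3%) the groups also lay within 50 bp of each other. In 490 (9.22%) they were over 100 bp apart. Of those 490 regions, 61.8% were at gene starts and 92.0% had a control peak, beside 13.7% and 39.0% of the 4373. The largest such distances were in regions nearest to Ing1, a PHD finger reader of histone H3 (2480 bp, chromosome 8, 11555151 to 11558461), Ptma, prothymosin alpha (1418 bp, in a region 37.1 kb from the gene), Trim8, a ubiquitin ligase (1258 bp), and Rnf13 (1237 bp). All 4 overlapped a parental peak, and Ing1, Ptma and Rnf13 also a knockout 2 peak.

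Peak widths differed more between replicates than between groups. The median width in the shared regions was 424 and 258 bp in wild type 1 and 2 and 547 and 294 bp in FLAG-TET2 1 and 2. The difference in log2 width was -0.28 (two-sided exact permutation p = 0.667, n = 2 and 2 lists), and it was 0.17 without FLAG-TET2 1.

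Some genes nearest to one-group regions also had shared regions. Within 50 kb, shared regions were nearest to 7447 genes, wild-type only regions to 1239 and FLAG-TET2 only regions to 4237. Of the genes of the one-group classes, 479 (38.7%) and 2084 (49.2%) also had a shared region, beside 34.0% of all 21887 protein-coding genes. The share for wild-type only regions was thus near that of all genes. The Tet2 gene (chromosome 3, 133463677 to 133545136) held 13 merged regions, of which 4 were shared, none of them called, and 2 FLAG-TET2 only.

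Promoter sequence differed between the classes. CACGTG, searched as spelled (it reads the same on both strands), stood in 7.84% of the 21263 promoters of the RefSeq table and in 13.2% of the 5071 that overlapped a shared region. It stood in 23.2% of the 302 promoters with a wild-type only region and in 2.77% of the 469 with a FLAG-TET2 only region. Among promoters with a called region it stood in 22.4% of 299 for wild type and 15.3% of 255 for FLAG-TET2. The share in promoters with a shared region varied with control peaks. It was 17.2% of 2084 with both kinds and 16.3% of 129 with a knockout peak only. With a parental peak only it was 10.1% of 2648, and without a control peak 8.48% of 224. The median number of CpG dinucleotides was 23 in promoters with a wild-type only region, 17 with a FLAG-TET2 only region, 25 with a shared region and 13 in all, so the classes also differ in base composition. Of the germline list, 11 of 17 genes with a promoter in the table held CACGTG, and among the 6 whose promoter overlapped a wild-type only or wild-type higher region Tex19.1 alone did not.

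The pair CAGCACC and GGACAG, added after the regions were seen, stood in 10 of the 21263 promoters on either strand. Of these, 5 were among the 255 with a region higher in FLAG-TET2, at Ogdhl, Hrh3, Ttc9b, Sptbn4 and Fam163b, and 3 among the 469 with a FLAG-TET2 only region, against 0 of 299 with a region higher in wild type and 0 of 302 with a wild-type only region. Split by control peaks, the pair stood in 3 of 2648 promoters with a shared region and a parental peak only. It stood in 2 of 2084 with both kinds of control peak and in 0 of 224 without a control peak. In the 224 promoters that overlapped a shared region without control peaks, CTTTGTT, letters of the SOX2 site, stood in 22 (9.82%) against 5.01% of all promoters, and ATTTGCAT, the octamer, in 9 (4.02%) against 1.66%. Promoters with no merged region held CTTTGTT at 6.83%, and those with a FLAG-TET2 only region held ATTTGCAT at 2.99%. The 224 promoters had a median of 18 CpG dinucleotides, beside 25 with any shared region, so base composition differed too. GGGCGG, the GC box, stood in 73.4% of promoters with a shared region and 46.2% of all. TCAAGGTCA and TTCCNGGAA stood in 0.217% and 1.22% of promoters with a shared region and 0.334% and 1.17% of all. A match is a run of letters in the window, not a bound site.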

How the data were processed

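Peak lists of 8 ChIP-seq libraries were used, 4 of targets and 4 of controls, and the input and IgG libraries were not analysed here. Per the submitters' processing notes, Trimmomatic, Bowtie2, MACS2, DiffBind, DESeq2 and mm10 were used, with no roles or versions. The deposited lists give for each peak of 1 library a score, a fold enrichment ratio, −log10 p and −log10 q values and a summit, all the authors' own. The deposited score was 10 times the −log10 q value cut to a whole number. Read depth is not given in the sources used here. Target peaks sharing 1 bp were merged, and each list was represented in a region by its peak of highest −log10 q. Normal scores of ranks among shared regions were tested with limma 3.58.1 (R 4.3.3, eBayes with a trend, Benjamini-Hochberg threshold 0.05), and the fit was tested on simulated data. Other values came from Python 3.11.15 and two-sided exact permutation tests over lists. Genes and promoters came from RefSeq tables of GRCm38.p6, which mm10 represents (17492 of 21887 protein-coding genes had a promoter). All 223 listed symbols matched. Regions within 1 kb of a start were called gene start. Counts of nearest genes and the gene lists used genes within 50 kb, and other named regions carry the nearest gene at any distance. Named regions were the 6 largest called differences in each direction, the 6 highest in mean percentile, the 4 leading ones of each one-group class, the 4 largest summit distances among regions with reproducible summits, and from each of 12 gene lists up to 4 leading members with each called or one-group member, of which a selection is printed and some are not reported here. Members, lists and alternatives were chosen with earlier results of these data known. Alternatives were a stricter threshold, 200 bp summit windows, equal list lengths, single peaks, no control peaks, other rank scales, a replicate block and leaving out each list.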

Additional observations from a re-analysis of the deposited data

How the results depend on the processing

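Limits: depth is unknown, each group has 2 lists, tag and reagent change together, and the control lists differ in length, so a missing control peak says only that none passed the threshold. Class counts that moved by over 1.5 times are given next. The range with a list left out is given for each class, whatever the size of the move. Shared regions numbered 7052 with equal list lengths, 4521 without a control peak and 5403 without a parental peak, and 12065 to 17416 with a list left out. Wild-type only regions numbered 2454 with summit windows, 4194 with equal lengths, 503 without a control peak, 528 without a knockout peak, and 1562 to 7808 with a list left out. FLAG-TET2 only regions numbered 1321 without a control peak, 1330 without a parental peak, and 7152 to 33533 with a list left out. The between-group summit distance of 44 bp was 37.5 bp with the stricter threshold, 34.2 bp with windows, 35.2 bp with single peaks and 26 bp without a control peak, and 43 to 44.5 bp with a list left out. The upstream shift of 117 bp at gene starts kept its direction in all 11 alternatives, at 63 bp with windows, 25 bp without a parental peak and 16.5 bp without a control peak.

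Regions higher in wild type numbered 383 ranked by the authors' fold, 123 on the percentile scale, 253 without the variance trend, 336 with equal lengths, 108 without a control peak, 161 without a parental peak, 370 without a knockout peak, and 537 to 715 with a list left out. Regions higher in FLAG-TET2 numbered 200, 297, 292, 71, 104 and 304 in the same alternatives from the percentile scale on, and 335 to 864 with a list left out. Replicate numbers did not pair the lists (r = 0.039), and the replicate block gave 759 and 608 calls and left the summit distance at 44 bp. The width difference of -0.28 ranged from -0.64 to 0.17 with a list left out, and was reversed (0.17) without FLAG-TET2 1. The Rnf13 difference of -1.36 ranged from -1.40 to 0.0403, the latter without FLAG-TET2 1. The difference in gene-start share was 16.4 points with the stricter threshold, 24.2 with equal lengths, 9.72 without a control peak, and 6.29 to 14.4 with a list left out. Nearest genes without a control peak numbered 2916, 421 and 1004 for shared, wild-type only and FLAG-TET2 only regions. Of 65 named called regions, 23 kept their call in each alternative that included them. The cause of these changes was not tested, beyond the fewer regions some alternatives hold. Alternatives without a parental or knockout peak alone, and those for gene-start summits, were chosen after seeing the data.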
